A study of Caenorhabditis elegans with 2 samples.

Results

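A ranked list held 72151 candidate entries for tagged REF-1 in Caenorhabditis elegans embryos, and 0.96% of them overlapped the authors' conservative set, described below. Of the 72151, 345 were strong entries at promoters of protein-coding genes and lay away from small RNA genes. They were selected on the signal that the authors deposited for each entry: they stood among the 1500 strongest entries, had their summit between 1000 bp upstream and 200 bp downstream of a protein-coding transcript start, and were over 100 bp from every tRNA, snoRNA and snRNA gene. Entries on a tandem repeat were left out, which means that under 75% of the bases within 100 bp of the summit matched themselves at any one shift of 8 to 100 bp. Chromatin immunoprecipitation followed by sequencing (ChIP-seq) had been done on 2 biological replicates of whole midembryos (3 hours, obtained by bleaching for eggs) of strain RW12224 with an antibody against GFP. Its allele st12224 on chromosome II, ref-1::TY1::EGFP::3xFLAG, was made by CRISPR insertion into the endogenous gene, so all embryos carried the tag, and sonicated DNA had a size range of 200 to 800 per the labels. The row limit can also be read as the first 1500 entries that meet the location conditions, and values for those 1500 are given where they differ most. There was 1 group and no contrast, whole embryos mix all cell types of that stage, and the depth of the libraries is unknown. The scale of the signal is not stated, so it was used only to order entries and to describe them.

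REF-1 belongs to a nematode family of transcription factors related to the hairy and enhancer of split (HES) proteins, and it carries a pair of basic helix-loop-helix domains. HES proteins in flies and mammals bind DNA at class C sites and N boxes, which are relatives of the E-box, and mostly lower transcription; several genes of the REF-1 family are switched on by Notch signalling in the early worm embryo. Worm promoters are compact, many genes lie head to head with a shared upstream region, and trans-splicing removes the first bases of most messages, so an annotated start often lies downstream of the place where transcription begins.

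The sequence under strong summits is shown for 6 windows, chosen for strength and for the motifs described below. Each is 201 bases of the + strand of the RefSeq genome WBcel235 (ce11), centred on the summit. They were taken from the 165 members on chromosomes II to V and X whose window holds no annotated exon, and strength is ranked among these 165 only. Capitals mark matches, on either strand, to the GA repeat GAGAGA, the HES class C site CACGCG, the GC box CCGCCC, the leading 6-mer CCGCAC, the promoter element CTGCGTCT or the repeat unit CCCCTTTT, and where matches overlap the run of capitals is longer. The windows of K12H4.5 (chrIII:8043862-8044062) and cnk-1 (chrIII:10270864-10271064) were the strongest with GAGAGA and with CTGCGTCT, and the window between tasp-1 and K01G5.10 (chrIII:10759095-10759295) was the strongest with CACGCG. The windows of M01F1.9 (chrIII:3499934-3500134), eel-1 (chrIV:3050798-3050998) and Y32B12B.4 (chrV:16553017-16553217) were the 3 strongest others of the 165, and hold none of these 3 motifs.
K12H4.5: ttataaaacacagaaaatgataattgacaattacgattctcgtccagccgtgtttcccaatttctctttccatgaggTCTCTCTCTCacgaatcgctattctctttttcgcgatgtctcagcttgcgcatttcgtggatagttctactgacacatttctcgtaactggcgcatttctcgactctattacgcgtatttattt
M01F1.9: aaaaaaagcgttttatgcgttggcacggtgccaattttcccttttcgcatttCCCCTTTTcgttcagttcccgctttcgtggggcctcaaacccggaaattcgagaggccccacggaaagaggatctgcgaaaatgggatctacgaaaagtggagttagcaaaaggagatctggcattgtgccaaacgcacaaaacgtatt
eel-1: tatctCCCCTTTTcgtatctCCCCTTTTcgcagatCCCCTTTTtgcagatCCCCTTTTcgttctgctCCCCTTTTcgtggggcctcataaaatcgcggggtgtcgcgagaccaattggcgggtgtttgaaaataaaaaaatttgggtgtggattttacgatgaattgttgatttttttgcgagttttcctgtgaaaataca
Y32B12B.4: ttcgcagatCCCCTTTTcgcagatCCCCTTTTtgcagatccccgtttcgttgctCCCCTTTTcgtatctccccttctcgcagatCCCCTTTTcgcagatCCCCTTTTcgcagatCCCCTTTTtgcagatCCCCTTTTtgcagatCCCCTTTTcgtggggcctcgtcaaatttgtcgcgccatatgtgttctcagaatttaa
tasp-1 and K01G5.10: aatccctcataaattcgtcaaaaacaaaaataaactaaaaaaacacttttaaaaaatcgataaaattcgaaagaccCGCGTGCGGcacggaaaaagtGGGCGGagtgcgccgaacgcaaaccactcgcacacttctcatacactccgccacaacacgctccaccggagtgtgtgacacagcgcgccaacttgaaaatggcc
cnk-1: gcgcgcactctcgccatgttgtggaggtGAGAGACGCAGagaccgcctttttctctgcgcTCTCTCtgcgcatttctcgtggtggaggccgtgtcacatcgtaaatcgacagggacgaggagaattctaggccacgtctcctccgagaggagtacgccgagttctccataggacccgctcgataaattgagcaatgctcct
The window of Y32B12B.4 held many near copies of one short unit around CCCCTTTT, on both sides of the summit, the window of eel-1 held several at one end only, and that of M01F1.9 held a single exact copy. A GA run stood near the summit of K12H4.5. The tasp-1 window held CACGCG and CCGCAC, overlapping each other, with a GC box some bases further on.

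K12H4.5, a small gene with an uncharacterized product (chromosome III, 8044487 to 8044780, + strand), had the strongest member, with a signal of 625. In the replicates' own lists that region had 271 in replicate 1 and 349.6 in replicate 2, and its summit lay 525 bp upstream of the start. It stood at row 31 of the list, and the next member at row 72. That next region, with a signal of 365 and with 179.6 in replicate 1 and 187 in replicate 2, lay between idhg-1, a subunit of mitochondrial isocitrate dehydrogenase, and mlcd-1, the mitochondrial malonyl-CoA decarboxylase. Its summit was 52 bp from the start of idhg-1 and 615 bp from that of mlcd-1. M01F1.9, which encodes a protein with an arrestin domain, came next with a signal of 319, and here the summit was 977 bp upstream, in an intron.

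The other 12 of the 15 strongest members had signals between 300.2 at T13C5.6 and 189 at atad-3 and nrde-2. They included the shared promoter of atx-2, the worm ataxin-2, and ecps-1, a relative of the proteasome component Ecm29, with 112 in replicate 1 and 183 in replicate 2. Between ears-2, a mitochondrial glutamyl-tRNA synthetase, and uncp-18, a syntaxin-binding protein, the values were 106 in replicate 1 and 137 in replicate 2. The HECT ubiquitin ligase gene eel-1 had 99.4 in replicate 1 and 148 in replicate 2. In all of these cases replicate 2 was the higher. The region counted for npp-6, a nuclear pore protein, and spd-5, a centrosome scaffold protein, had nearly equal values of 103.98 in replicate 1 and 106.13 in replicate 2. Its summit (chromosome I, 5176420) lay in an intron, within the span of spd-5 (5171275 to 5176654). The region of tos-1, a gene used as a splicing reporter, was the least balanced, with 63.7 in replicate 1 and 160.2 in replicate 2. W01D2.3 was the 1 region of the 15 with the higher value in replicate 1 (114) than in replicate 2 (95.5). Of these 15 regions, 13 lay outside protein-coding genes, 7 lay between head-to-head starts, and 9 held only unique sequence.

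Promoter entries were scarcer at the very top of the list than below it. Members made up 16 of the 250 strongest entries (6.4%) and 52 of the next 250 (20.8%), and then 29.8% of rows 501 to 1000 and 25.6% of rows 1001 to 1500. Below row 1500 the share of entries that met the same location conditions stayed between 25.8% and 29.2% in every stretch of the list. The top rows were taken by other entries: 47.2% of the first 250 were near small RNA genes and 34.4% on tandem repeats, against 5.6% and 5% in rows 1001 to 1500. Of the first 1500 rows, 428 had a summit in a promoter window, and 78 of these were dropped for a small RNA gene and 5 for a tandem repeat. The other strong entries included 621 that were neither in a promoter window, nor at such an RNA gene, nor on a repeat.

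**Figure D1:**
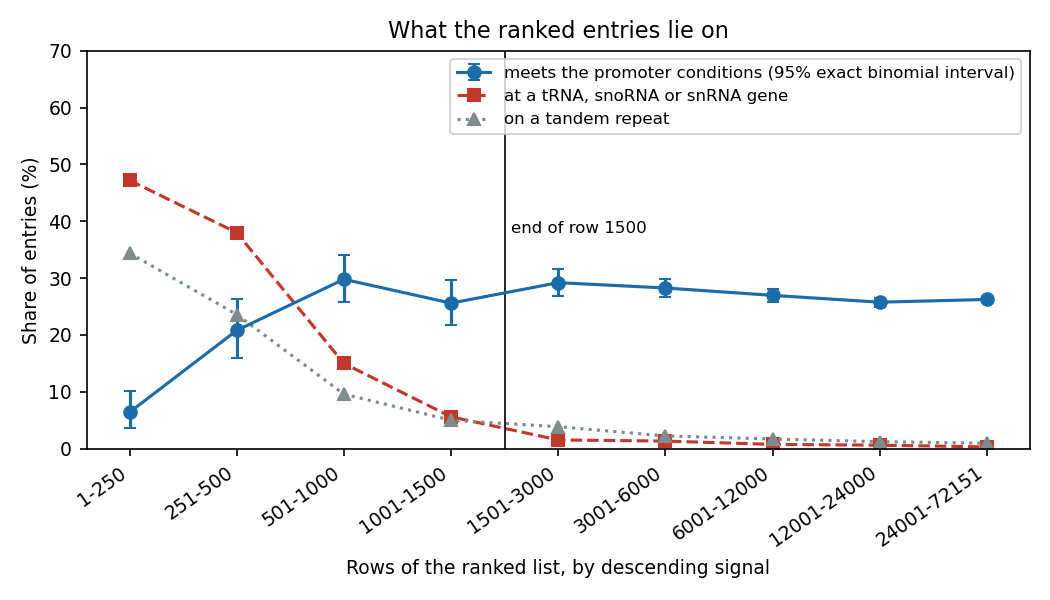
Share of entries (y axis, %) that met the promoter conditions, were near small RNA genes (tRNA, snoRNA, snRNA), or lay on a tandem repeat, for successive rows of the ranked list (x axis); bars on the promoter points are 95% exact binomial intervals. The promoter share is 6.4% in the first 250 rows and between 20.8% and 29.8% in every later stretch, while the other 2 shares fall from the top rows on.

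The signal that chose the members had a median of 75.8 (quartiles 68.9 and 91.2), and ran from 64.9 to 625. The row limit cut through a region of the list with almost no slope. The last members inside it were gly-5 (row 1489, signal 65.0), Y76B12C.4 (row 1493, 64.9) and sart-3 (row 1499, 64.9), and the first promoter entries outside it were F14E5.2 (row 1501), F46B6.5 (row 1503) and grdn-1 (row 1504), each with 64.9. At gly-5, which encodes a glycosyltransferase, replicate 2 had 42.7 and replicate 1 had no entry, while sart-3 had 26.5 in replicate 1 and 34.0 in replicate 2. The tagged gene itself was not a member: the entry at the promoter of ref-1, 536 bp upstream, stood at row 4647 with a signal of 51.8, with 25.51 in replicate 1 and 29.98 in replicate 2, and was in no peak of the conservative set.

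In the replicates' own ranked lists the members had a median signal of 35.5 in replicate 1 (quartiles 28.4 and 44.0) and of 43.6 in replicate 2 (quartiles 36.1 and 54.3). The ratio of replicate 1 to replicate 2 had a median of 0.787 over the 333 members with an entry in both lists, and replicate 1 was higher in 83 of them (24.9%). The ratio was 0.833 in strong entries outside promoters and 0.875 in the 5637 lower-ranked promoter entries with both values, so signals were mostly lower in replicate 1 throughout. The widest gaps among members went both ways. F53B3.5, which encodes a membrane protein, had 48.3 in replicate 1 and 17.9 in replicate 2, and morc-1, an ATPase of the germline small RNA pathway, and lit-1, the Nemo-like kinase of worm Wnt signalling, also had over 2 times as much in replicate 1. At the other end T22C1.1 had 9.58 in replicate 1 and 59.8 in replicate 2, followed by fmil-1 and algn-13. All 6 of these had scores of 282 or less on a scale that ends at 1000.

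Across members, the log2 signals of the replicates had a Pearson correlation of 0.517 and a Spearman correlation of 0.241 (n = 333 regions). The regions share both libraries and were chosen on a signal made from the pair, which bounds the plot from below, so this is only a description. Summits of the replicates lay a median of 22 bp apart (quartiles 9 and 46 bp), and in 259 of the 333 regions they were at most 50 bp apart. A further 12 members had no entry in the own list of one replicate, 7 in replicate 1 and 5 in replicate 2, and 1 of these 12 was in the conservative set.

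**Figure D2:**
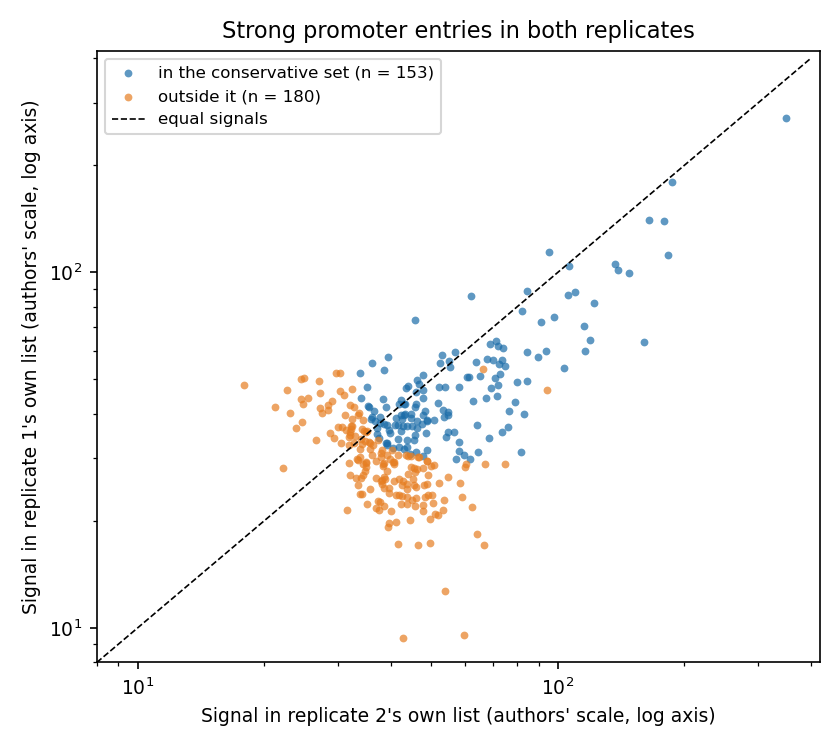
Signal of each strong promoter entry in the own ranked list of replicate 1 (y axis) and of replicate 2 (x axis), both on log axes and on the authors' scale, for the 333 regions found in both. Points in the conservative set (blue) lie mostly above and to the right of those outside it (orange), with overlap between them, and most points lie under the dashed line of equal signals.

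The authors' conservative set, the peaks that passed a global irreproducible discovery rate (IDR) of at most 0.01 between the replicates, overlapped 154 of the 345 members by at least 1 bp (44.6%, exact 95% binomial interval 39.3 to 50.1). Over all entries of the ranked list the share was 0.96%; rank and signal enter both the set and the rule, so nothing follows from the gap between them. Of the first 1500 entries that met the location conditions 10.4% were in the set. Of the 115 members with the highest signal 90.4% were in the set, of the middle 115 34.8% and of the 115 weakest 8.70%. The other thresholded set overlapped 150 members (43.5%), beside 0.924% of all entries, and 120 members were in both. A set made from 1 replicate alone held far fewer: 57 members (16.5%) in that of replicate 1, beside 0.496% of all entries, and 84 (24.3%) in that of replicate 2, beside 0.574%. Both of these held 44 members, and 248 (71.9%) were in neither. Strong entries outside promoters were in the conservative set in 26.6% of cases and strong entries at small RNA genes in 87.0%. A score of 830, which is that threshold, was reached by 156 members, and the 2 of them missing from the conservative set were sre-47, a chemoreceptor gene, and pot-3, a relative of a telomere-binding protein. Of the 32-base stretches in their windows, 11.2% and 44.1% occurred once in the genome.

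Members clustered just upstream of the start. The summit lay a median of 234 bp upstream of the nearest protein-coding transcript start (quartiles 521 and 97 bp). For the first 1500 entries that met the location conditions the median position was -274 bp. Of the 345 members, 308 (89.3%, interval 85.5 to 92.3) had their summit upstream of the nearest start. Such a summit can still lie inside a gene, as at M01F1.9. Among the 18635 lower-ranked promoter entries, 78.7% were upstream. The 300 bp before the start held 169 members (49.0%) and 27.4% of lower-ranked entries, and the fullest 100 bp were those from 200 to 100 bp upstream, with 73 members (21.2%) against 9.33% of lower-ranked entries. In the 200 bp after the start the order was the other way round, with 5.80% and 4.93% of members per 100 bp against 11.8% and 9.46% of lower-ranked entries. The pattern graded with signal. Of the 115 strongest members 114 were upstream and 59.1% were within 300 bp, of the middle 115 it was 101 and 52.2%, and of the 115 weakest 93 and 35.7%. No test was made of these differences, since the members were chosen on the signal.

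**Figure D3:**
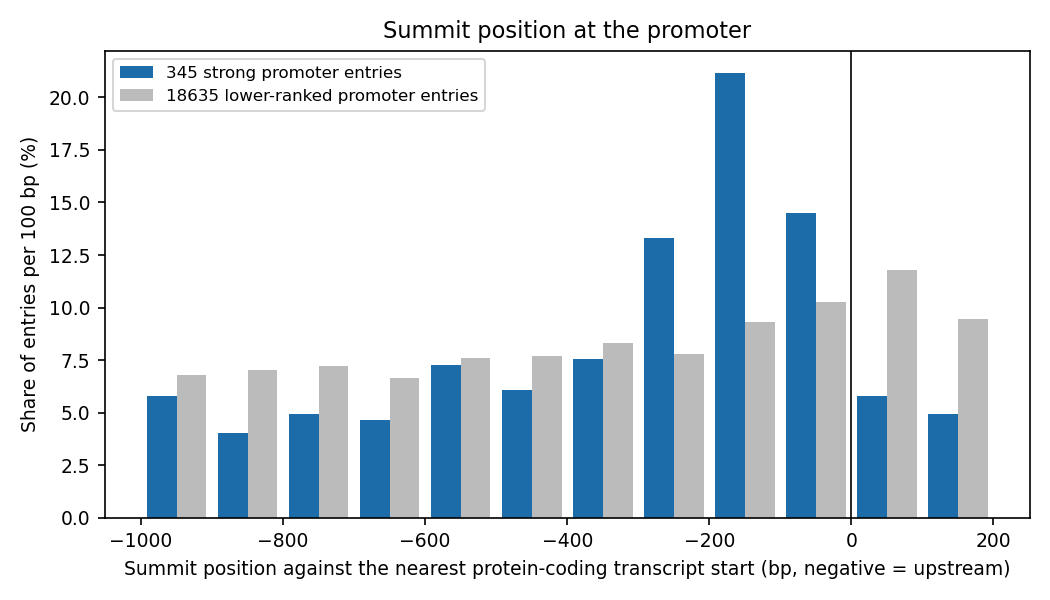
Share of entries per 100 bp (y axis, %) by position of the summit against the nearest protein-coding transcript start (x axis, bp, negative is upstream), for 345 strong promoter entries (blue) and 18635 lower-ranked promoter entries (grey). The strong entries peak at 21.2% between 200 and 100 bp upstream and drop to 5.80% just after the start, where lower-ranked entries reach 11.8%.

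By annotation, 235 members (68.1%) lay outside protein-coding genes, 58 (16.8%) in introns, 34 (9.86%) in coding exons, 13 (3.77%) in 5′ UTRs and 5 (1.45%) in 3′ UTRs. Lower-ranked promoter entries lay outside genes in 43.1% of cases, in introns in 24.0% and in coding exons in 24.7%. The tbx-8 member is one of those in a 5′ UTR: this T-box factor gene of body wall morphogenesis had a signal of 71.3, with the summit 59 bp after the start. The nhr-49 member, at a nuclear receptor gene of fat metabolism, lay in a coding exon 89 bp after the start, with a signal of 73.1.

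Promoters shared by a pair of genes were common. A start on each strand fell within reach of the summit for 92 members (26.7%, interval 22.1 to 31.7), against 9.55% of lower-ranked entries and 14.6% of the first 1500 entries that met the location conditions. In 83 of them (24.1%) the summit lay between head-to-head starts, against 6.61% of lower-ranked entries, and the gap between those starts had a median of 574 bp (quartiles 346 and 808) against 836.5 bp. Within the gap, 50 of the 83 summits (60.2%) were in the middle 50% of it, where an even spread would put 50%. This difference was not tested, and no such share was taken for lower-ranked entries. Head-to-head positions made up 36 of the 115 strongest members, 30 of the middle 115 and 17 of the 115 weakest. Examples beyond those named above were rpl-15 with K11H12.8, fib-1, the nucleolar methyltransferase fibrillarin, with the small RNA factor mut-15 (320 bp gap), and iff-2, a translation factor of the eIF5A family, with F54C9.14.

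The windows of members were rich in G and C. Their GC content averaged 45.1% ± 6.87 (SD, n = 345), against 36.8% ± 7.55 in the 690 flanking windows, equally long and 500 bp away on both sides, 38.8% ± 7.07 in lower-ranked promoter entries and 34.3% in the 19973 windows centred 200 bp upstream of each protein-coding gene. Strong entries outside promoters had a like value, 45.7%. Among members GC content did not grade with signal: it was 45.1%, 45.8% and 44.4% in the 115 strongest, middle and weakest. Over all entries it was lower further down the list, 46.0% in rows 501 to 1000 and 38.2% in rows 24001 to 72151. In the first 250 rows it was 43.4%.

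The class C site of HES proteins, CACGCG (the same as CGCGTG on the other strand), was in 44 of 345 windows (12.8%, interval 9.42 to 16.7). It was in 1.45% of flanking windows, 2.46% of flanks 1000 bp away, 3.65% of lower-ranked promoter entries, 6.92% of strong entries outside promoters and 3.54% of all promoter windows of that length. Strong entries at small RNA genes had it more often than members did, in 51 of 316 windows (16.1%), and among the first 1500 entries that met the location conditions it was in 7.6%. The nearest copy lay a median of 27.5 bp from the summit, and 29 of the 44 were within 50 bp. The wider pattern CACGNG, which includes CACGCG and the palindromic E-box CACGTG, was in 31.9% of members and 13.5% of flanks, with 13.2% of all promoter windows, 21.6% of strong entries outside promoters and 30.7% of those at small RNA genes. CACGTG alone was in 7.83% of members, 3.04% of flanks and 7.41% of strong entries outside promoters. The N box CACNAG gave closer values, 24.3% in members against 19.9% in flanks, 17.3% in all promoters, 24.3% in strong entries outside promoters and 44.3% in strong entries at small RNA genes. The loose E-box CANNTG, which also takes in CACGTG, was in 54.5% of members and 52.3% of flanks.

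Members also carried other letters that are not HES sites. The GC box CCGCCC was in 61 windows (17.7%), against 3.48% of flanks, 6.0% of lower-ranked promoter entries, 8.05% of strong entries outside promoters, 12.3% of those at small RNA genes and 4.67% of all promoters. GAGAGA, a simple repeat, was in 80 windows (23.2%), against 11.9% of flanks, 14.2% of all promoters, 16.7% of strong entries outside promoters and 26.6% of strong entries at small RNA genes. CTGCGTCT, an 8-base element known from worm promoters, was in 23 windows (6.67%), against 1.74% of flanks, 2.48% of all promoters, 3.70% of strong entries outside promoters and 2.22% of those at small RNA genes. Letters typical of AT-rich promoter sequence were scarcer at the summits than in flanks, in members and in strong entries outside promoters alike. The TATA box TATAAA was in 11.3% of members against 18.6% of flanks and 25.04% of all promoters, and a run of 8 T, TTTTTTTT, in 9.28% of members against 21.9% of flanks and 24.2% of all promoters. The splice-acceptor letters TTTCAG were in 23.2% of members and 41.2% of flanks. GATA-like TGATAA was in 12.2% of members and 17.7% of flanks, the homeodomain core TAATTA in 5.80% and 7.97%, and TGGGAA, the core of the worm CSL factor of Notch signalling, in 12.46% and 12.03%.

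Of the 2080 6-mers compared (each with its reverse complement), CCGCAC stood first by the difference between members and flanks, and it was taken up after that ranking was seen. It was in 76 windows (22.0%), against 2.03% of flanks, 4.27% of lower-ranked promoter entries, 7.73% of strong entries outside promoters, 6.01% of those at small RNA genes and 3.11% of all promoters. Its neighbour CGCACA, which overlaps CCGCAC by 5 bases in CCGCACA, was in 24.6% of members and 5.51% of flanks. CCGCAC had the smallest median distance from the summit of the 7 motifs whose distance was measured, 23 bp, with 59 of 76 within 50 bp. It also graded with signal, from 33.0% of the 115 strongest members to 23.5% of the middle 115 and 9.57% of the 115 weakest. The GC box went from 25.2% to 17.4% and 10.4% over the same sets, and CACGCG from 15.7% to 14.8% and 7.83%, while GAGAGA did not follow the signal (18.3%, 26.96% and 24.35%). CCGCAC and CACGCG occurred together in 14 windows, CCGCAC and the GC box in 29, CACGCG and GAGAGA in 19. In 154 windows no class C site, GC box, CCGCAC, GA repeat, CTGCGTCT or palindromic E-box was found.

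Because the members had more G and C than the entries set beside them, the shares were also compared within classes of GC content, a split chosen after the values were seen. CACGCG was in 10.1% of members against 2.22% of lower-ranked entries under 40% GC, in 8.79% against 4.64% from 40 to 45%, in 12.3% against 5.73% from 45 to 50%, and in 20.2% against 9.18% at 50% and over. CCGCAC was higher in members in all 4 classes, with 21.3% against 2.44% in the lowest and 28.6% against 9.6% in the highest. The GC box was higher in members in the lower 3 classes and turned in the highest, 15.5% against 18.5%. GAGAGA was in 40.5% of members against 22.5% of lower-ranked entries in the highest class, and in 10.1% against 10.4% in the lowest. CACGTG gave 7.87% against 3.63% in the lowest class and 8.79% against 6.76% from 40 to 45%. It gave 6.17% against 7.53% from 45 to 50%, and 8.33% against 7.08% in the highest class.

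**Figure D4:**
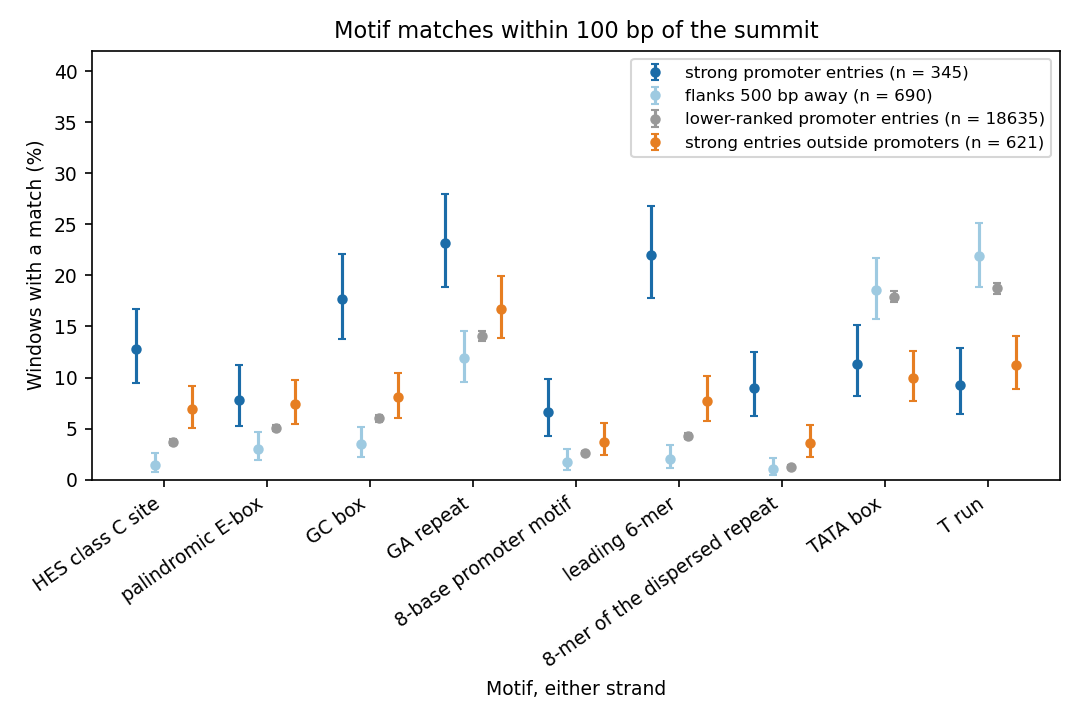
Share of 201-bp windows with a match (y axis, %, bars are exact 95% binomial intervals) for 9 motifs, in strong promoter entries, their flanks, lower-ranked promoter entries and strong entries outside promoters. The leading 6-mer (CCGCAC) is in 22.0% of strong promoter entries and 2.03% of flanks, the HES class C site (CACGCG) in 12.8% and 1.45%, and the T run in 9.28% and 21.9%.

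**Figure D5:**
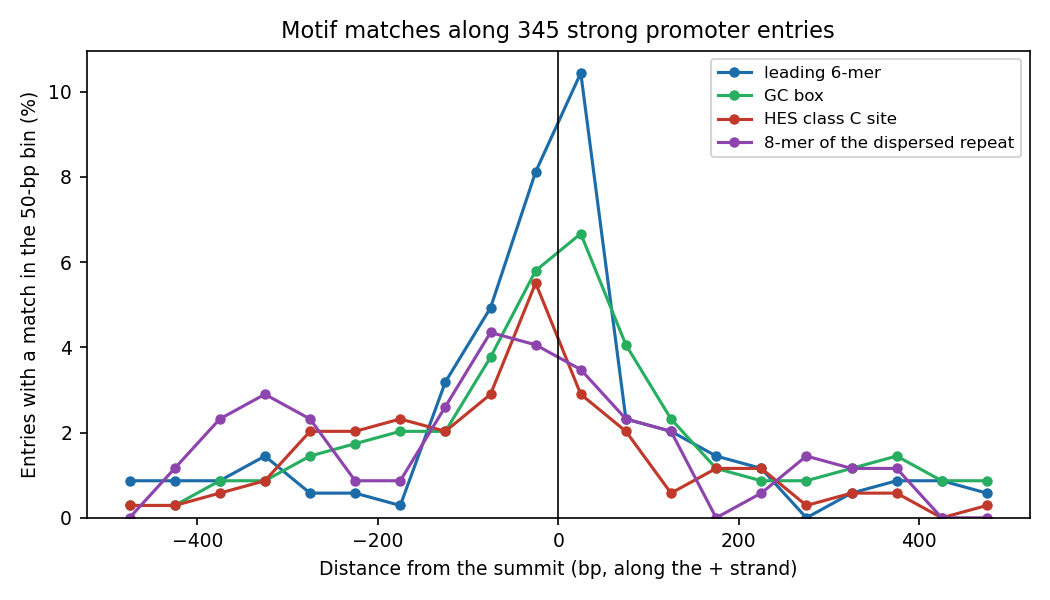
Share of the 345 strong promoter entries with a match in each 50-bp bin (y axis, %) by distance from the summit along the + strand (x axis, bp). The leading 6-mer reaches 10.4% and the GC box 6.67% in the bin just after the summit, the HES class C site reaches 5.51% in the bin just before it, and the 8-mer of the dispersed repeat is spread more widely.

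One group of members shared a repeated sequence that the tandem repeat condition did not remove. CCCCTTTT, picked after the printed windows of eel-1 and Y32B12B.4 had been seen, was in 31 members (8.99%), against 1.01% of flanks, 1.25% of lower-ranked promoter entries, 3.54% of strong entries outside promoters and 1.27% of all promoters. It was in 21 of the 115 strongest members (18.3%), 6 of the middle 115 and 4 of the 115 weakest, and in 5 of the 15 strongest. The windows of eel-1 and Y32B12B.4 that it was picked from are counted among the strongest, so the choice itself raises those shares. Of these 31 windows 19 held 32-base stretches that occur elsewhere in the genome, against 58 of the other 314. The remaining 12 of the 31 were wholly unique, so a match alone does not mark a copy of the repeat. The signal had a median of 91.4 in the 31 and 75.1 in the 314, and 20 of the 31 (64.5%) were in the conservative set against 134 of the 314 (42.7%). Genes with such a window included nrde-2, a nuclear RNA interference factor, with 2 separate members of 189 and 92.1, the ribosomal protein gene rps-24 (90.3), the Krebs cycle enzyme gene ogdh-1 (82.3) and dnj-28, a chaperone gene (88.6).

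Repeated sequence was not limited to that group. All 32-base stretches of the window were unique in the genome for 268 members (77.7%), against 84.9% of lower-ranked promoter entries, 62.0% of strong entries outside promoters and 16.8% of strong entries at small RNA genes. In 55 members (15.9%) fewer than 90% were unique, against 9.30% of lower-ranked entries. The sources used here do not say how reads from repeated sequence were placed. Over the 268 wholly unique members, CACGCG was in 14.6%, CCGCAC in 23.1% and GAGAGA in 26.1%, starts on both strands were in reach of 28.7%, and 43.7% were in the conservative set. Over the 77 others these shares were 6.49%, 18.2%, 13.0%, 19.5% and 48.1%. Palindromic E-boxes were in 27 of the 268 and in 0 of the 77.

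Members were spread over all 6 chromosomes but not evenly. Chromosome III had 76 (5.51 per Mb), chromosome I 63 (4.18 per Mb), IV 65 (3.72 per Mb), II 51 (3.34 per Mb), V 50 (2.39 per Mb) and X 40 (2.26 per Mb). As a share of protein-coding genes with a member, III was again highest with 3.79%, followed by I with 3.09%, and V was lowest with 1.28%. The X chromosome held 11.6% of members (interval 8.41 to 15.5), against 14.8% of lower-ranked promoter entries, 15.3% of strong entries outside promoters and 34.2% of strong entries at small RNA genes. The median signal was between 74.2 and 79.1 on every chromosome. The middle 50% of the chromosomes held 51.3% of members, 47.5% of lower-ranked entries, 36.4% of strong entries outside promoters and 55.3% of protein-coding genes.

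Of 19973 protein-coding genes, 441 (2.21%) had a member in their promoter window, and 199 had one that was in the conservative set. A single gene was in reach of the summit for 244 members, 2 genes for 93 and 3 for 8. The gene groups below were counted by symbol, and a gene counts where any of its transcripts starts within reach, so genes that share a promoter are both counted. The nearest start can be that of another gene, as for npp-14 (cel-1), eif-3.D (R08D7.4), hsp-60 (Y22D7AL.10) and cct-7 (T10B5.4).

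Lists of protein synthesis genes differed in their share with a member, read beside the 2.21% over all genes. Among 81 cytosolic ribosomal protein genes 8 had one (9.88%), in order of signal rpl-3, rpl-15, rpl-35, rps-28, rps-24, rpl-20, rpl-25.2 and rps-1, and 6 of the 8 were in the conservative set. At rpl-3 the signal was 150.4, with 78.1 in replicate 1 and 82.2 in replicate 2. All 8 summits lay outside protein-coding genes, between 119 and 462 bp upstream of the nearest start. For rpl-20 the nearest start was that of Y17G9B.5, and replicate 1 had no entry there. The windows of rpl-35, rps-28 and rps-24 held CCCCTTTT. Those of rpl-35 and rps-28 were wholly unique, while that of rps-24 held only 40.6% unique sequence. Among 41 translation factor genes 4 had a member (9.76%), namely eif-3.C (122, with 39.9 in replicate 1 and 83.3 in replicate 2), iff-2, erfa-3 and eif-3.D. CACGCG was in the windows of all 4, against 1 of the 8 ribosomal protein regions and 12.8% of all members. Splicing and nuclear pore lists had it in 2 of 4 regions each, and core histones in 0 of 6. These small counts were not tested. Mitochondrial ribosomal proteins had 2 of 70 (2.86%) and aminoacyl-tRNA synthetases 1 of 32 (3.13%), which was ears-2, both near the share over all genes.

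Lists of RNA processing, energy and other genes are likewise read beside the 2.21% over all genes. Splicing and snRNP genes had 4 of 47 (8.51%), namely prp-19, a splicing ubiquitin ligase, the Sm protein genes snr-1 and snr-2, and rsp-8. The region counted for prp-19, with a signal of 109.6, lay nearest to the start of K10D2.5, 69 bp away, against 606 bp for prp-19 and 788 bp for emb-1. The region of snr-1 lay nearest to snx-13, 190 bp away against 421 bp for snr-1. That of snr-2 lay nearest to W08E3.4, 79 bp away against 387 bp for snr-2. The respiratory chain had 4 of 40 (10%), led by cyc-1, cytochrome c1, with a signal of 91.2. At cyc-1 the values were 49.9 in replicate 1 and 46.1 in replicate 2. Heat shock and chaperone genes had 5 of 61 (8.20%). These included cct-7 of the chaperonin ring, the mitochondrial chaperone hsp-60 and the endoplasmic reticulum chaperone hsp-3. Of the 5, dnj-29 alone was in the conservative set. Proteasome genes had 2 of 33, ubiquitin conjugation genes 2 of 34, RNA polymerase and general factor genes 2 of 50, and replication and cell cycle genes 2 of 48. Chromatin genes had 2 of 78, the SWI/SNF subunit swsn-3 (155) and the acetyltransferase cbp-1 (122), both in the conservative set.

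Core histone genes had the highest share of the lists, 11 of 71 (15.5%), in 6 regions. These were weak among members, from 66.8 to 85.9, and only 2 of the 6 regions were in the conservative set, those of his-61 with his-62 and of his-4 with his-3. Histone genes have near-identical copies, and 5 of the 6 windows contained repeated stretches. In 3 of the 6 the summit lay in a coding exon. Genes for nuclear pore proteins, a list drawn up after npp-6 was seen among the strongest, had 4 of 26. These were npp-6 (198), npp-8 (141), npp-18 (129) and npp-14 (119.6), all in the conservative set. The windows of npp-6 and npp-18 held 67.1% and 37.6% unique sequence, and that of npp-6 also held CCCCTTTT. Those of npp-8 and npp-14 were wholly unique.

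Genes of small RNA pathways had 4 of 42: nrde-2, mut-15, and the Argonaute genes alg-2 and alg-5. At alg-2 the values were 42.5 in replicate 1 and 28.4 in replicate 2, while at mut-15 they were 46.6 and 47.8. The alg-5 region is also that of his-68 and his-67.

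The lists of embryonic regulators were short and their counts small. None of 36 genes for basic helix-loop-helix factors, 82 homeobox genes and 12 GATA factor genes had a member, and of 21 T-box genes tbx-8 did (4.76%). In the Notch pathway 1 of 30 genes did (3.33%), dsl-2, which encodes a Delta-like ligand, with a signal of 67.5 and values of 27.7 in replicate 1 and 39.2 in replicate 2, and it was outside the conservative set. For the 3 lists without a member the exact 95% interval reaches up to 9.74%, 4.4% and 26.5% of the genes, above the 2.21% over all genes in each case. Nuclear hormone receptors had 5 of 269 (1.86%), near the share over all genes. One of the 5, nhr-141, had 2 separate members, with 11.8% and 14.1% unique sequence.

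Chemoreceptors had 4 of 1364 (0.293%, exact 95% interval up to 0.749%, against 2.21% over all genes), namely srbc-38, sre-47, sre-1 and srh-171, and the windows of srbc-38 and sre-47 held 34.7% and 11.2% unique sequence. The sre-1 region is shared with B0495.9, whose start was 62 bp away against 932 bp for sre-1. Collagens had 2 of 173, C-type lectins 3 of 240, F-box genes 5 of 322, and major sperm proteins (31 genes) and cytochrome P450 genes (74) had none. The intervals of these 5 lists, which reach from 3.59% for F-box genes to 11.2% for major sperm proteins, include the share over all genes. Kinesin, dynein and tubulin genes had 1 of 33 (3.03%), klp-13. Genes known only by a sequence name had 151 of 9057 (1.67%).

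A few genes had several separate members. Y17D7C.1 had 3 separate members, with signals of 99.7, 90.2 and 83.7, of which the strongest was unbalanced, with 18.4 in replicate 1 and 64.4 in replicate 2, and was outside the conservative set. At eel-1 the second member (158, with 88.6 in replicate 1 and 84.5 in replicate 2) lay 373 bp upstream, while the stronger one lay 794 bp upstream, and both windows held the CCCCTTTT repeat. The shared promoter of atx-2 and ecps-1 had a second member of 81.3, and W01D2.3 a second of 95.7.

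Other kinds of non-coding gene were not part of the location conditions. Within 100 bp of the summit there was a gene annotated simply as ncRNA for 34 members (9.86%), against 3.99% of lower-ranked promoter entries and 10.8% of strong entries outside promoters. A miRNA gene lay there for 2 members and a pseudogene for 3, and none had a piRNA, lincRNA, antisense or rRNA gene there. No member overlapped a stronger one.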

How the data were processed

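ChIP-seq peak lists of 2 biological replicates on ce11 were used, made by the authors from filtered alignments and a control file, per the labels and the accompanying notes. The sources used here do not give the aligner, the peak caller or the depth, so depth is unknown, and control reads were not analysed here. The deposited signal is on a scale that is not stated. The deposited score equalled, within 1, a log transform of the irreproducible discovery rate (IDR) limited to 1000, and the authors also deposited its −log10. The authors' thresholding used a further file that the notes do not explain.

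Members were taken from the ranked list of the pair with the Ensembl release 115 gene models (WBcel235, the same assembly). The signal of a numbered replicate came from its own ranked list, by an overlap of at least 1 bp and the nearest summit. These equalled the signals deposited beside each entry for 333 members (tolerance 0.0001). Sequence was read from the RefSeq genome, 100 bp on either side of the summit, and a gene's product from the RefSeq annotation. A 32-base stretch was unique where it occurred once on both strands of the 6 nuclear chromosomes. Python 3.11.15, numpy 2.4.6, pandas 2.3.3 and scipy 1.17.1 were used, and the functions were tested on simulated data.

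No test was made: there was 1 group, and the signal that chose the members enters most measures. Intervals are exact 95% binomial (Clopper-Pearson) and cover counting error only. Named genes are the 15 strongest members, up to 3 strongest from each gene list, the entries at the row limit, genes with several members and the extremes of the replicate ratio; others were named where a count was small. The members, the 27 gene lists and the 17 motifs were chosen with earlier results of these data known, and the nuclear pore list, the motifs CCGCAC and CGCACA, the repeat unit CCCCTTTT, the split by GC content and the sets of 115 after seeing values. Alternatives changed the row limit, windows, distances, lists, overlaps and replicates.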

Additional observations from a re-analysis of the deposited data

How the results depend on the processing

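Of 149 alternative values of the main answers 127 stayed within the interval, SD or 1.5-fold range of the reported value. Some of these could hardly move: merging overlapping entries left the same 345 members, and the other ranked list shared 343 of them. Mean GC content was judged against the SD of single windows, a wide range for a mean. The 345 members became 1500 when the first 1500 entries that meet the location conditions were taken, 217 with the first 1000 rows and 154 within the conservative set. The share in the conservative set was 10.4% for those 1500, 65.0% with 1000 rows, 31.8% with 2000 rows, 37.4% with a promoter window of 2000 and 500 bp, and 11.0% with a stricter IDR threshold of 0.001. For those 1500 the median position was -274 bp, starts on both strands 14.6% and CACGCG 7.6%. The position was -163.5 bp with a window of 500 and 100 bp, -288.5 bp with the wider one and -446 bp against the most upstream start. Windows of 50 bp to each side gave CACGCG 8.41%, CTGCGTCT 3.77% and GAGAGA 11.3%. Flanks 1000 bp away had CTGCGTCT in 0.870%. Within the conservative set the replicate ratio was 0.829. Leaving out 1 replicate, members were taken from the own list of the other: they numbered 328 to 383, with 36.3% to 41.5% in the conservative set, a position of -274.5 to -236 bp, starts on both strands for 19.5% to 25.6%, CACGCG in 10.4% to 12.5%, CTGCGTCT in 4.88% to 6.01%, GAGAGA in 21.4% to 22.6%, GC content of 44.6% to 45.5% and 12.2% to 12.3% on X. No ratio exists with 1 replicate. No paired analysis was possible because there is 1 group. Of the 15 strongest regions, 14 remained without replicate 1, 15 without replicate 2, 12 with the narrow window and 9 with only unique sequence. The lists without 1 replicate shared 221 and 186 of the 345 members. Unknown depth means that no error of a single region can be given.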
